A study of Homo sapiens with 8 samples.

Results

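The unfolded protein response and the integrated stress response are described here through 36 genes, of 19974 protein-coding genes in the gene table, and the chromatin peaks called at them in OPM-2 myeloma cells. A locus is the gene body plus 5 kb on both sides, and a gene-end peak is a peak overlapping the 1 kb on either side of an annotated end of the gene. By role, 9 members are chaperones and folding helpers, 4 serve oxidative folding, 3 serve translocation into the endoplasmic reticulum (ER), 9 serve ER-associated degradation, 4 are stress sensors and 7 are factors or targets of the integrated stress response.

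Cells that secrete much protein load the ER with unfolded chains, and the unfolded protein response adjusts folding, export and degradation to that load. The sensors in the ER membrane are IRE1 (ERN1), which splices the messenger of XBP1, PERK (EIF2AK3), which phosphorylates the translation factor eIF2 alpha, and ATF6, which is cut in the Golgi to free a transcription factor. Phosphorylated eIF2 alpha lowers general translation and raises that of ATF4, and this branch, shared with kinases that sense other stresses, is the integrated stress response. Plasma cells and the myeloma cells that derive from them depend on these pathways because of the immunoglobulin they make.

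OPM-2 is an established human myeloma line with the t(4;14) translocation, and all 4 groups are this line without further alteration per the labels. The cells had 72 h of the solvent DMSO, of 1 µM all-trans retinoic acid (ATRA, ligand of the retinoic acid receptors), of 1 µM pomalidomide (POM, which makes cereblon degrade IKZF1 and IKZF3), or of ATRA and POM together at the same doses. Each treatment had 1 chromatin immunoprecipitation (ChIP) library and 1 input library, and the antibody is not named, although the series text speaks of transcription factor binding. With 1 library per treatment no test of a treatment was possible, every statement compares these libraries, and occupancy in fewer cells cannot be told apart from less occupancy per cell.

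The lists held 50946 (DMSO), 36742 (labelled ATRA), 54279 (POM) and 47193 (ATRA+POM) peaks. The library labelled ATRA stood apart. Its relative depth, inferred from the local backgrounds of peaks and not from read totals, was 0.133 of that of DMSO. The same value was 0.927 for POM and 0.902 for ATRA+POM. The median ATRA-labelled peak had 23 reads at the summit, against 78, 72 and 65 (DMSO, POM, ATRA+POM). The retinoid target CYP26A1 had 0 locus peaks in the ATRA-labelled list and 1, 2 and 1 in the other lists. DHRS3, also a retinoid target, had 0 locus peaks with DMSO and 0 ATRA-labelled, and 4 with POM and 5 with ATRA+POM. Of plasma cell markers 8 of 8 had a gene-end peak in every list. B cell markers (0 of 3) and myeloid markers (0 of 3) had no gene-end peak, and T cell markers had 1 of 3 (2 of 3 with POM). Away from the gene ends CSF1R had 6 locus peaks with POM and 2 with ATRA+POM, LYZ 1 with POM and PAX5 1 with DMSO. Of the t(4;14) genes, NSD2 had a gene-end peak in every list and FGFR3 with DMSO alone. Fold enrichment is the authors' ratio of a peak's summit to the local background of its own library, and summit reads were inferred from that ratio and its p. Below, 4 values in a row are in the order DMSO, ATRA-labelled, POM, ATRA+POM, with summit reads in parentheses after the fold enrichment. Over all genes the gene-end fold enrichment of the ATRA+POM list was lower than those of DMSO and POM, with median log2 ratios of −0.85 and −0.93, so a lower value in that list is read against this shift, and values after subtracting it are called centred.

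The promoters of HSPA5, HERPUD1, CHAC1, ASNS and TRIB3 are printed because DMSO peaks lay in or beside each of these windows and the results below turn on how those peaks stood in the other lists. Each holds the 250 bases before and the 50 bases from the RefSeq start on (GRCh38.p14), read 5′ to 3′ on the strand of the gene, and positions are counted from the start, which is 0, with negative values before it. They lie at chr9:125241294-125241593 (minus strand), chr16:56931892-56932191 (plus), chr15:40953221-40953520 (plus), chr7:97872359-97872658 (minus) and chr20:381045-381344 (plus). Capitals mark matches, on either strand, to the ER stress elements ERSE (CCAAT, 9 bases, CCACG) and ERSE-II (ATTGG, 1 base, CCACG), to the unfolded protein response element UPRE (TGACGTGG) and to the C/EBP-ATF response element CARE (TGATG, 1 base, AA).
HSPA5: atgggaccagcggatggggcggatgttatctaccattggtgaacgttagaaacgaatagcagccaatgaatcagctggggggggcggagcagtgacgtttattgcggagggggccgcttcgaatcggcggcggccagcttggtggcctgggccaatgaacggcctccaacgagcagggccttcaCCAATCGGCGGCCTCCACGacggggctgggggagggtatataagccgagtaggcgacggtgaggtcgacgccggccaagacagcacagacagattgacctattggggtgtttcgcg
HERPUD1: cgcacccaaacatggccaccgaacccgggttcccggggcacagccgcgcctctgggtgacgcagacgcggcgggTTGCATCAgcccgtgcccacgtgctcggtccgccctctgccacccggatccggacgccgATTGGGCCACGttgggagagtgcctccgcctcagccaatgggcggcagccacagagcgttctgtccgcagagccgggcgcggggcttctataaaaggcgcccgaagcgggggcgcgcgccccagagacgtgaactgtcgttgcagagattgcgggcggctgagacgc
CHAC1: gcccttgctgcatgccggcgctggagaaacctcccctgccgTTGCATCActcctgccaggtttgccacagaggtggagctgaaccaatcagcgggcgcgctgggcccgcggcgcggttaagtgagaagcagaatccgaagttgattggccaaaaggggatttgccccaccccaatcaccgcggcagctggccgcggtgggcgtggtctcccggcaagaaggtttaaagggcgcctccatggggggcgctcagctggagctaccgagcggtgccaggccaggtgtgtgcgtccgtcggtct
ASNS: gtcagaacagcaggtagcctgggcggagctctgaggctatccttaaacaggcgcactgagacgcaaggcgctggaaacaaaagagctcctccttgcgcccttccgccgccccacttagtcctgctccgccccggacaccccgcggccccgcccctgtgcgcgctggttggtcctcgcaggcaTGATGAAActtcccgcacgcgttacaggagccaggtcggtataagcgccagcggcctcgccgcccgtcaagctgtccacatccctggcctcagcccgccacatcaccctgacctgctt
TRIB3: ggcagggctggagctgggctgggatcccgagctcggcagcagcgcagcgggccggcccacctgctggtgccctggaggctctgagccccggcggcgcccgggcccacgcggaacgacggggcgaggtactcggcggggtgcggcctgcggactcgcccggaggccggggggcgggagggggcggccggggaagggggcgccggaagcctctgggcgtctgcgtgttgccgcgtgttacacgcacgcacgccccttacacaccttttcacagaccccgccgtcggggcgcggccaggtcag

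The HSPA5 window holds an ERSE, the element that ATF6 reads together with NF-Y, at −66 to −48. HERPUD1 has an ERSE-II at −117 to −107 and a CARE at −176 to −169. CARE, the site of ATF4 with C/EBP partners, also lies at −209 to −202 of CHAC1 and at −68 to −61 of ASNS, and the TRIB3 window shown has no match to any of the 4 elements. The distance from the CHAC1 CARE to the nearest peak was 37 bp (DMSO), 76 bp (ATRA-labelled) and 141 bp (POM), and the nearest ATRA+POM peak was 57930 bp away. At ASNS a DMSO peak began at the CARE (0 bp), and the distances in the other lists were 140, 35 and 587 bp. At HSPA5 the ERSE was 57, 78, 23 and 276 bp from a peak.

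Over the 34 members with a RefSeq promoter (DERL1 and DERL3 have no entry), an ERSE was found at 5 (HSPA5, HSP90B1, PDIA6, ERO1B and CRELD2), against 0.133% of 15812 genes, and an ERSE-II at 3 (HERPUD1, SDF2L1 and HYOU1), against 0.0949%. CARE was found at 5 (HERPUD1, ATF3, CHAC1, ASNS and CREB3L2; 3.60% of genes), the UPRE at HYOU1 alone (1.05%), the CCAAT box, which is part of the ERSE, at 25 (42.1%) and the E-box CACGTG at 6 (10.9%). No member window held the retinoid receptor repeat DR5 (AGGTCA, 5 bases, AGGTCA; 0.00632% of genes), the interferon-type repeat (GAAA, 2 bases, GAAA; 4.16%) or the composite of an ETS and an IRF box (GGAA, 2 bases, GAAA; 3.37%). Having several windows gives a gene more room for a match. Among genes with 1 window the ERSE was at 4 of 25 members and 0.136% of 11776 genes, and CARE at 2 of 25 and 2.58%. ERO1B has an ERSE at −243 to −225 and no peak within 139720 bp in any list.

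Most members carried peaks in every list, and what differed lay at single genes and regions. A gene-end peak was called at 31, 31, 30 and 29 of the 36 members, against 48.8%, 40.0%, 47.9% and 41.3% of all genes. At 29 members it was called in all 4 lists (80.6%, against 37.3% of all genes), and without the ATRA-labelled list the count was again 29, against 40.3%. The loci held 188, 173, 180 and 170 peaks, with a median of 3.50, 3.00, 3.00 and 4.00 per locus. An end of another protein-coding gene lies within 1 kb of an end of HSPA5 (RABEPK), DNAJB9 (THAP5), DNAJB11 (TBCCD1), CRELD2 (ALG12), MZB1 (PROB1), SYVN1 (MRPL49), DERL2 (MIS12), SEC61B (ALG2) and DDIT3, among others, and peaks there cannot be assigned to a single gene. DERL3, a part of the retrotranslocation channel of secretory cells, and ERO1B, an oxidase of protein disulfide isomerases, had no locus peak in any list. TRIB3 had none with POM or ATRA+POM, and CHAC1 none with ATRA+POM. ATF3, ASNS and PDIA6 had locus peaks and no peak at the annotated ends. For ASNS and PDIA6 a further start lies inside the annotated gene and had peaks in every list, and ATF3 had none at its 2 RefSeq starts.

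**Figure D1:**
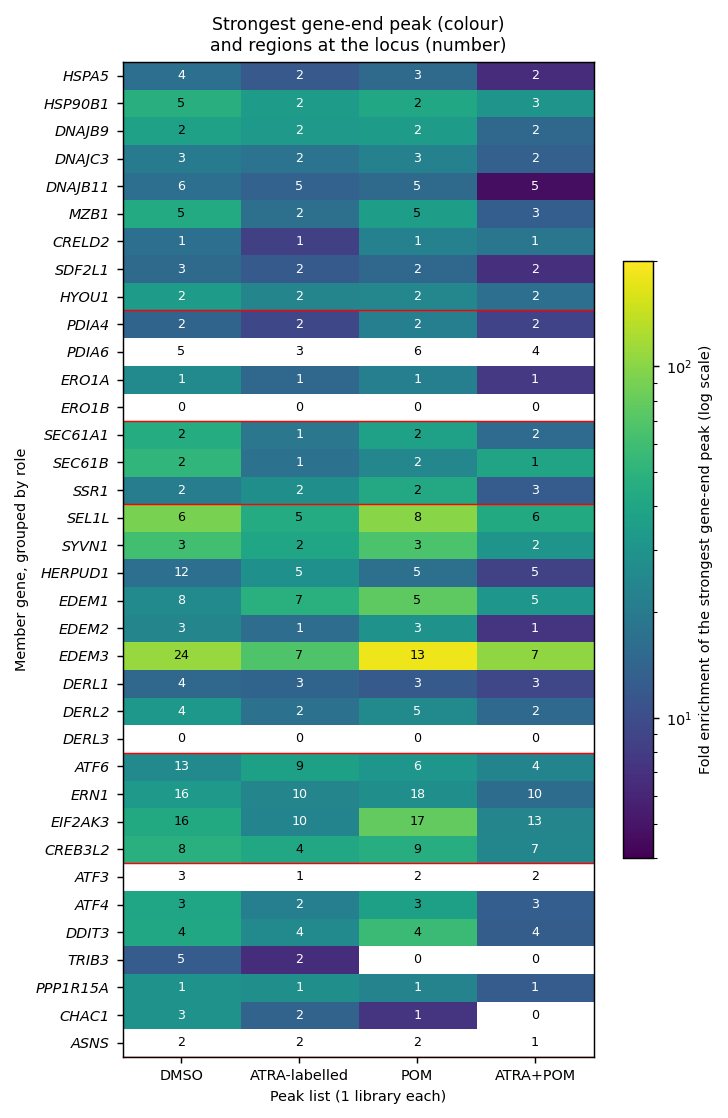
Each row is a member gene, grouped by role between the red lines, and each column a peak list. Colour gives the fold enrichment of the strongest gene-end peak on a log scale (white, no gene-end peak), and the number is the count of merged regions of the locus in that list. EDEM3 is the brightest row, TRIB3 is white with POM and ATRA+POM, and CHAC1 is white with ATRA+POM.

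Peaks that 4 lists call at a place can be split in some and joined in others, so peaks sharing a base were merged into regions. The 36 loci held 208 regions, of which 183, 109, 148 and 111 were called in the respective lists. In all 4 lists 93 regions were called (44.7%, against 33.9% of the 43770 regions at all protein-coding loci), and 43 were called with DMSO alone (20.7%, against 16.3%). POM and ATRA+POM without the other lists shared 5 (2.40%, against 7.37%), and DMSO and the ATRA-labelled list without the others shared 10 (4.81%, against 3.60%). Regions at degradation genes numbered 64, 32, 45 and 31, at sensors 53, 33, 50 and 34, at integrated stress response genes 21, 14, 13 and 11, at chaperones 31, 20, 25 and 22, at oxidative folding genes 8, 6, 9 and 7, and at translocation genes 6, 4, 6 and 6. The counts per list and role have no all-loci count beside them and are not read as member differences. Of DMSO peaks at member loci 58.0%, 71.8% and 55.3% had a counterpart in the ATRA-labelled, POM and ATRA+POM lists. At all genes these shares were 54.1%, 73.9% and 57.7%.

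**Figure D2:**
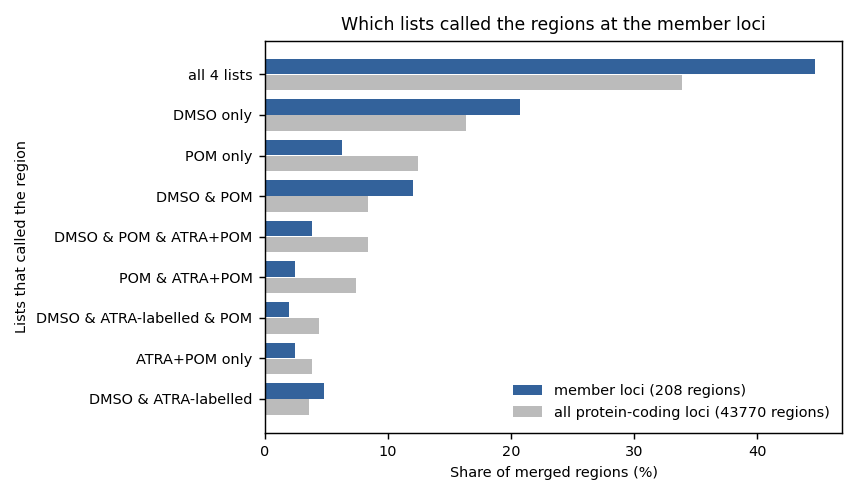
Bars give the share of merged regions (%, horizontal axis) called in each set of lists, for the 208 regions at the member loci and for the 43770 at all protein-coding loci. The member bar is longer for all 4 lists (44.7% against 33.9%) and shorter for POM with ATRA+POM alone (2.40% against 7.37%).

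Summits lay beside the starts more than on them. With DMSO the strongest peak at a start had its summit at a median distance of 564 bp from the start at 32 members, against 319 bp over 8258 genes, and it was within 150 bp at 2 of them (6.25%, against 23.0%). The medians in the other lists were 646, 573 and 587 bp, against 360, 401 and 377 bp. The summit was upstream of the start at 20 of 32 members with DMSO (62.5%, against 47.7% of all genes). The counts were 18 of 32 ATRA-labelled (56.2%, against 47.4%), 20 of 31 with POM (64.5%, against 48.1%) and 14 of 30 with ATRA+POM (46.7%, against 47.9%). At SYVN1, the ubiquitin ligase of ER-associated degradation, the summit stood at −160, −162, −164 and −165 bp from the start, and at PPP1R15A, which restarts translation by bringing a phosphatase to eIF2 alpha, it stood at 565, 562, 569 and 569 bp. These places shifted by a few bases between lists.

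At effectors of the integrated stress response whole loci were without calls in some lists. At TRIB3 (chromosome 20, 380760 to 397559), a pseudokinase induced by ATF4 and CHOP, 5 DMSO regions and 2 ATRA-labelled regions were called, and 0 with POM or ATRA+POM. The DMSO peaks had fold enrichments of 12.4 (43 reads), 11.3 (39), 7.33 (25), 10.7 (37) and 7.32 (37), and the ATRA-labelled ones 6.70 (8) and 8.19 (10). All are weak beside the DMSO list's median of 78 summit reads, while the fewest reads in any called peak were 13 with DMSO and 11 with POM. At CHAC1 (chromosome 15, 40953471 to 40956512), an enzyme that breaks down glutathione, 3, 2, 1 and 0 regions were called. The region centred at −826 bp from its start had 29.2 (123), 14.0 (21) and 7.29 (24) and no peak with ATRA+POM. No other protein-coding gene overlaps either locus. Both genes had fewer regions in each POM-treated library than with DMSO, and 2 each in the ATRA-labelled library. Why calls were missing was not tested.

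ASNS makes asparagine and is a direct ATF4 target. ASNS has RefSeq starts 1 and 2, and the window printed above is that of start 1. The region at 509 bp from start 2 had 28.7 (149), 12.6 (20), 9.50 (38) and 4.90 (16). The region at −426 bp from start 1 had 21.2 (127), 16.2 (25), 6.68 (59) and none. Both were highest with DMSO and lowest or missing with ATRA+POM. DDIT3 encodes CHOP, the factor linked to death under lasting ER stress. Its region at −1829 bp had 57.5 (437), 37.5 (67), 19.1 (145) and 8.45 (95), and the one at −579 bp 39.1 (264), 25.9 (45), 21.7 (81) and 5.78 (37). The region over its start was ordered differently in fold enrichment, at 42.0 (432), 22.2 (49), 57.7 (342) and 12.7 (173). POM was above DMSO there in fold enrichment and not in reads. The inferred local background was 9.30 reads with DMSO and 4.95 with POM. With summit reads in place of fold, the centred log2 ratio of POM against DMSO was −0.06. The deposited fold enrichment was below DMSO with ATRA+POM. The DDIT3 locus also holds ends of MARS1, MBD6 and LOC128125814, and these peaks cannot be assigned to DDIT3 alone.

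**Figure D3:**
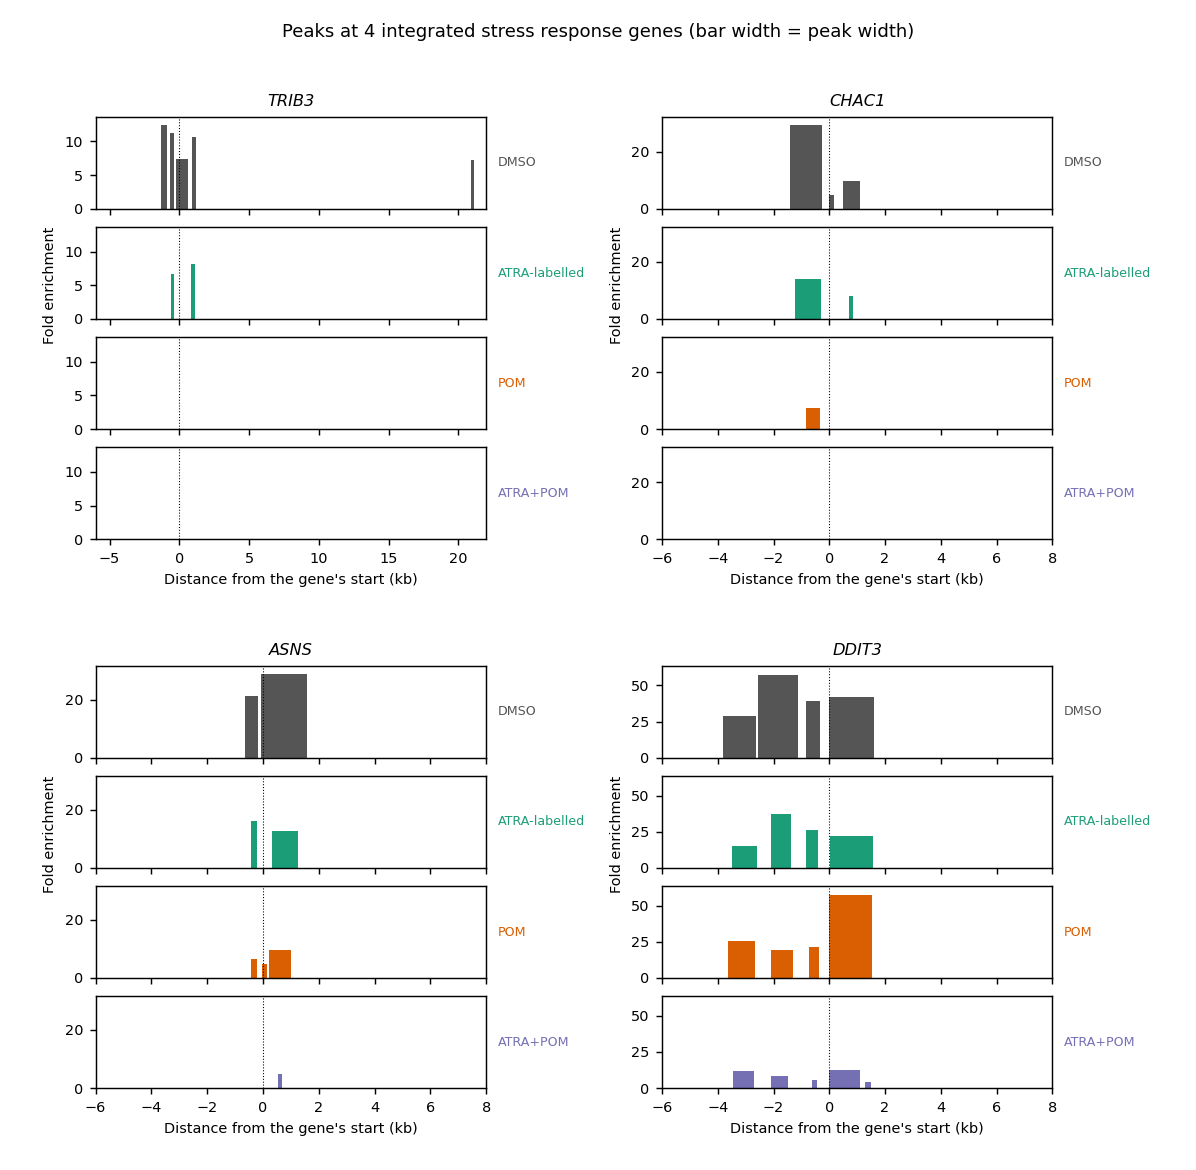
Bars are called peaks at TRIB3, CHAC1, ASNS and DDIT3, placed by distance from the start of the gene (kb, positive in the direction of the gene) with height as fold enrichment, for each of the 4 lists. TRIB3 has bars in the DMSO and ATRA-labelled lists alone, CHAC1 has none with ATRA+POM, and the DDIT3 bar over the start is tallest with POM (57.7).

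ATF4, the factor that this branch translates, kept its gene-end peak in every list, at 40.0 (434), 21.7 (57), 36.9 (227) and 12.8 (98), with the summit at −563, −511, −559 and −558 bp. PPP1R15A (GADD34) had a single region per list, with 29.5 (696), 28.1 (121), 23.1 (376) and 12.4 (179). ATF3, a repressor induced in the same branch, had its strongest region at −5724 bp from a start, at 23.8 (207), 16.2 (32), 15.9 (108) and 3.16 (50). The deposited fold enrichment of each was lowest with ATRA+POM. After centring on the shift of the whole list, ATRA+POM against POM was −0.59 (log2) at ATF4 and 0.03 at PPP1R15A, and against DMSO −0.79 and −0.40.

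Among the sensors, regions within one gene differed in opposite directions. ERN1 (IRE1; chromosome 17) had 16, 10, 18 and 10 regions. The region 47221 bp inside the gene had 64.1 (768), 54.9 (136), 12.7 (161) and 6.25 (65), high in the lists without POM and low in those with it. The region 26161 bp inside had 16.6 (155), 8.59 (21), 33.8 (438) and 20.0 (194), and a region 32804 bp inside was called with POM (22.1, 124 reads) and ATRA+POM (8.30, 47 reads) and in neither other list. At the gene end ERN1 had 33.1 (254), 23.6 (41), 27.9 (324) and 15.9 (180). The ERN1 locus overlaps no other protein-coding gene.

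EIF2AK3 (PERK) had 16, 10, 17 and 13 regions. Its gene-end peak had 43.3 (524), 23.4 (56), 78.1 (493) and 23.8 (241), and the region 12061 bp inside the gene had 12.6 (202), 11.2 (34), 38.7 (412) and 23.0 (214). The latter was higher in both POM-treated lists than in both others. A region 35479 bp inside was highest with DMSO, at 42.1 (284), 27.6 (48), 28.8 (190) and 12.3 (119).

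ATF6 had 13, 9, 6 and 4 regions. The regions 5261 bp and 50100 bp inside the gene had 17.1 (289), 20.6 (63), 5.69 (69) and none, and 11.8 (212), 6.80 (21), 2.91 (58) and none. The strongest, 39683 bp inside, stayed high in each list, at 64.7 (2289), 58.3 (330), 92.0 (3754) and 64.1 (1850). At the gene end ATF6 had 26.0 (1202), 36.7 (188), 31.3 (1050) and 23.3 (459). The inferred local background at that ATF6 peak was 45.3 reads with DMSO, against 3.51 at SEC61A1 and 2.55 at TRIB3. CREB3L2, a relative of ATF6 that is also cut in the membrane, had 8, 4, 9 and 7 regions, with 137 (2557), 129 (457), 115 (1743) and 107 (1640) at the one 20330 bp inside the gene and 47.6 (577), 41.7 (103), 46.1 (496) and 24.1 (271) at the gene end.

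ER-associated degradation sends misfolded proteins back to the cytosol for the proteasome, and its members held the largest single differences. EDEM1, a lectin that picks out misfolded glycoproteins, had a region 10562 bp inside the gene (chr3:5197107-5199431) with 59.5 (511), 44.5 (98), 3.85 (31) and 3.38 (32). It was among the strong EDEM1 regions in the DMSO and ATRA-labelled lists, and low with POM and ATRA+POM. The region at −1485 bp from the EDEM1 start was ordered differently, at 25.9 (547), 47.6 (89), 75.4 (569) and 31.3 (258). Its reads were close between DMSO and POM, while the inferred local background was 20.1 reads with DMSO and 6.56 with POM. The region over the start had 53.0 (388), 38.9 (71), 29.3 (301) and 29.8 (195).

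SEL1L, the partner that holds the ligase SYVN1 in its complex, showed the same opposition. The region from its start into the gene (chr14:81527457-81533845) had 91.0 (1159), 87.9 (224), 15.0 (114) and 13.6 (121). The region at its far end had 49.6 (548), 44.5 (103), 99.5 (866) and 43.2 (421), and the one 47060 bp inside 11.8 (140), 10.1 (20), 35.8 (348) and 20.5 (185). The start region was thus higher without POM and the others were highest with POM. The region at −501 bp had 8.44 (80), 5.93 (12), 17.5 (105) and 6.21 (35). No other protein-coding gene overlaps the SEL1L or EDEM1 locus.

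HERPUD1, a ubiquitin-like ER protein that aids the ligase complex, had 12 regions with DMSO and 5 in each other list. The region 4362 bp inside had 37.5 (320), 24.7 (54), 9.23 (73) and 4.30 (41), and the region just after the start 16.8 (340), 28.5 (72), 7.13 (158) and 6.31 (71). The region at −479 bp had 30.5 (182), 14.9 (24), 17.0 (93) and 8.65 (47), and the 7 regions called with DMSO alone were weak, at 23 to 46 reads. At all 5 regions shared by the lists HERPUD1 was highest with DMSO or in the ATRA-labelled list.

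EDEM3, another lectin of this step, had the highest gene-end fold enrichment of the members, at 109 (2310), 68.2 (371), 182 (3384) and 104 (1840), in a region that runs from the start into the gene. Its regions numbered 24, 7, 13 and 7, and that at −831 bp had 8.96 (241), 6.73 (29), 25.6 (485) and 12.7 (204). SYVN1 was steady in rank, at 61.6 (732), 39.8 (101), 65.6 (501) and 30.4 (296). EDEM2, a mannosidase of the same step, had 23.6 (300), 16.2 (40), 29.5 (284) and 7.36 (106). DERL1 and DERL2, parts of the channel, had 14.7 (358), 14.1 (65), 12.2 (133) and 9.14 (67), and 32.4 (276), 17.5 (34), 26.1 (112) and 15.2 (50).

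**Figure D4:**
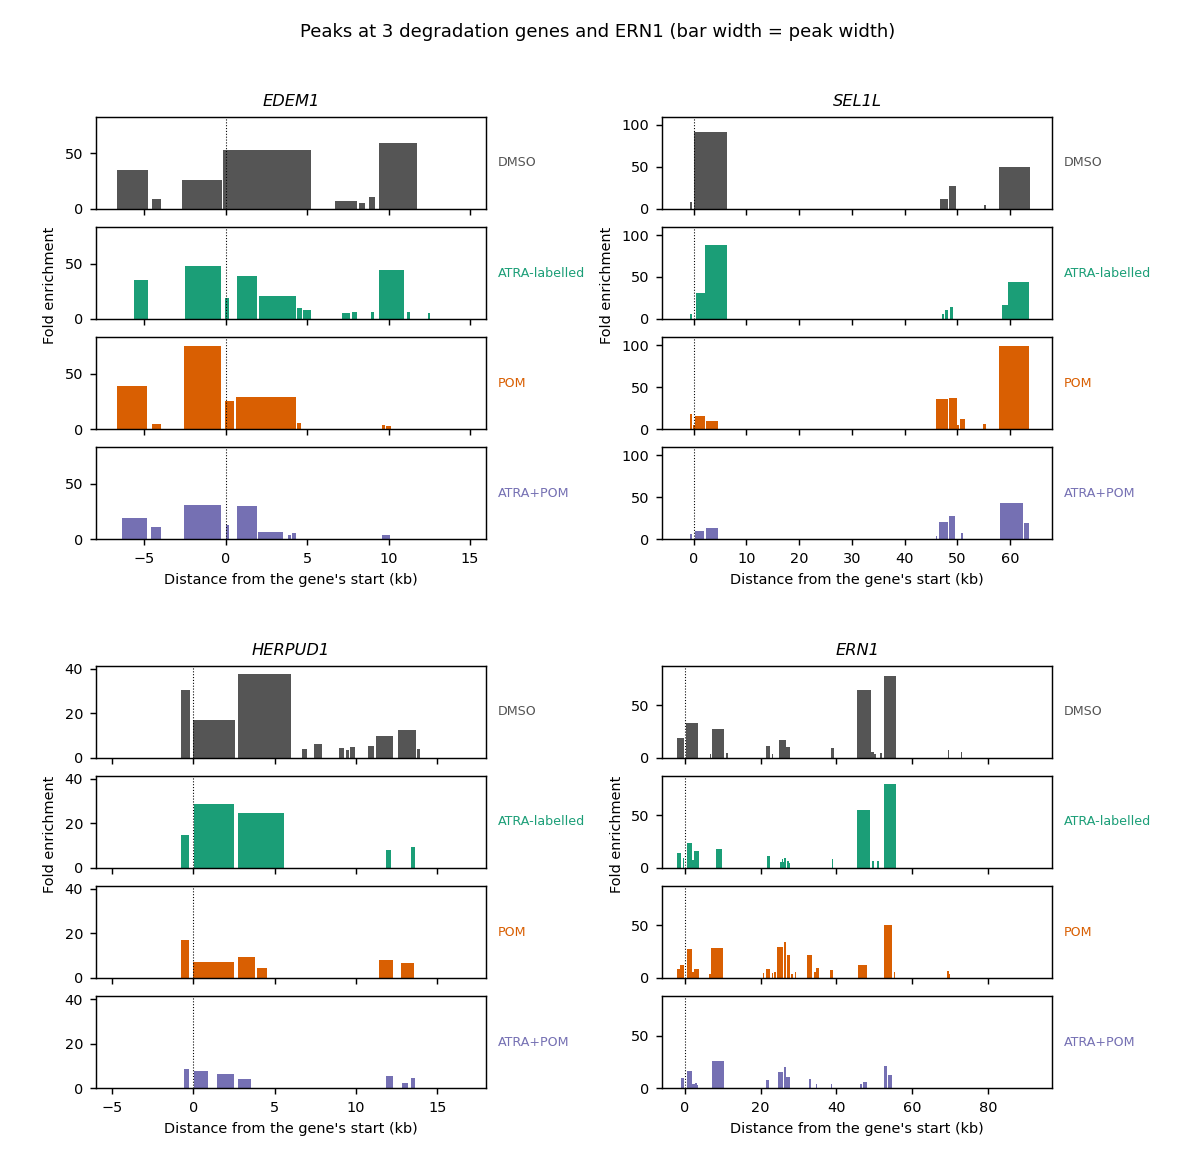
Bars are called peaks at EDEM1, SEL1L, HERPUD1 and ERN1, placed by distance from the start of the gene (kb) with height as fold enrichment, for each of the 4 lists. The EDEM1 bar near 10.6 kb and the SEL1L bar after the start are tall in the DMSO and ATRA-labelled lists and low in both lists with POM, while the SEL1L bar at the far end is tallest with POM (99.5).

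All 9 chaperones and helpers had a gene-end peak in every list. HSPA5 (BiP), the main ER chaperone that also holds the sensors inactive, had 16.8 (240), 11.9 (32), 15.4 (127) and 6.54 (71), with the summit at −408, −390, −394 and −487 bp. HSP90B1 (GRP94) had 47.2 (638), 34.2 (94), 41.1 (505) and 30.1 (293) at a summit −1487 bp from the start with DMSO. DNAJB9, a cochaperone that returns BiP to IRE1, had 37.6 (635), 32.7 (101), 34.0 (530) and 15.0 (277). The deposited values of these 3 genes were lowest with ATRA+POM, but after centring ATRA+POM against DMSO was −0.50 (log2) at HSPA5, −0.47 at DNAJB9 and 0.20 at HSP90B1, which against POM was at 0.49. DNAJB11, a cochaperone of BiP, had 16.8 (172), 13.7 (27), 15.4 (128) and 4.64 (38), the lowest gene-end fold of any member with ATRA+POM. CRELD2, a secreted ER stress target, had 16.7 (98), 8.42 (13), 22.2 (75) and 18.5 (61). After centring it was at 1.00 (log2) for ATRA+POM against DMSO.

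HYOU1, which helps BiP exchange its nucleotide, had 34.0 (373), 23.9 (51), 24.4 (348) and 16.8 (150). DNAJC3, a BiP cochaperone that was also described as an inhibitor of eIF2 alpha kinases, had 19.7 (210), 17.8 (40), 22.2 (200) and 13.2 (106). MZB1, which helps immunoglobulin assembly in plasma cells, had 43.9 (185), 16.9 (23), 36.1 (123) and 12.8 (63). SDF2L1, which works with DNAJB11, had 15.5 (135), 12.2 (22), 14.8 (112) and 6.92 (23). The deposited values were lowest with ATRA+POM. Centred, ATRA+POM against DMSO was −0.16 (log2) at HYOU1, 0.27 at DNAJC3, −0.92 at MZB1 and −0.32 at SDF2L1. Against POM the values were 0.40, 0.18, −0.56 and −0.16. Centring thus turns the direction of DNAJC3 in both comparisons and that of HYOU1 against POM. The SDF2L1 ratios set different places against each other, since its strongest summit stood at 436 bp with ATRA+POM and upstream otherwise. Its region at −562 bp had 15.5 (135), 12.2 (22), 14.8 (112) and 4.83 (25).

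In oxidative folding, the disulfide isomerase PDIA4 had 14.1 (184), 9.37 (23), 21.8 (267) and 8.73 (126), and the oxidase ERO1A 26.1 (222), 15.0 (29), 21.5 (135) and 7.68 (74). PDIA6, which also acts on the sensors, had 27.7 (166), 10.5 (20), 32.3 (160) and 18.5 (77) at its inner start. PDIA4 and PDIA6 were highest with POM, and ERO1A with DMSO. Of the translocation genes, SEC61A1, the channel's pore, had 44.8 (201), 19.0 (35), 37.4 (170) and 15.7 (70), and SSR1, of the complex beside the channel, 21.0 (320), 27.9 (58), 42.2 (322) and 12.5 (111). SEC61B, a small subunit, had 52.4 (315), 17.5 (38), 24.6 (187) and 39.4 (134). Its strongest summit stood at −119 bp with DMSO and −131 bp with ATRA+POM, and at 646 bp (ATRA-labelled) and 626 bp (POM) in the others, so that the strongest peak was not at the same place in each list. The same holds for HERPUD1, at 1723, 1885, −411 and −329 bp, and for SSR1, at −317, −336, 1040 and 1052 bp. MZB1 had −440, −545, −293 and 1334 bp. DNAJB11 had −526, −631, −574 and 71 bp, and SDF2L1 −539, −585, −573 and 436 bp. DDIT3 had 128, −532, 133 and 108 bp. SEL1L had 4008, 60057, 59400 and 59786 bp, so its gene-end ratios against DMSO set opposite ends of the gene against each other.

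The POM list was set against DMSO, the comparison for pomalidomide by itself. TRIB3 was the member with a DMSO gene-end peak and none with POM (1 of 31, against 5.93% of all genes), and no member had the reverse (0 of 30, against 4.05%). Where the strongest DMSO gene-end peak had 30 to 59 reads, as at TRIB3, 22.4% of genes had no POM gene-end peak. Ratios of fold enrichment were centred on the median over all genes with a gene-end peak in both lists, which was 0.07 on the log2 scale, and called past 2-fold. Past that were EDEM1 on the higher side (1 of 30 members, log2 ratio 1.47, against 6.76% of genes) and CHAC1 (−2.07) and SEC61B (−1.16) on the lower (against 7.60%). The next highest were SSR1 (0.94) and EIF2AK3 (0.79) and the next lowest HYOU1 (−0.54), and the members' median was −0.16. With summit reads in place of fold, CHAC1 was at −2.08 but EDEM1 was at 0.33 and SEC61B at −0.48, and HERPUD1 (−1.59), DERL1 (−1.15) and DERL2 (−1.03) were past 2-fold lower.

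Matched region by region, 13 of 130 member regions were past 2-fold lower with POM (10.0%, against 10.3% of 24101 regions at all loci) and 6 past 2-fold higher (4.62%, against 11.7%). The count of lower regions is near the background. The lower ones were at EDEM1 (−4.00 and −1.14), SEL1L (−2.65), ERN1 (−2.39), HERPUD1 (−2.08 and −1.29), ATF6 (−2.07 and −1.64), CHAC1 (−2.06), ASNS (−1.72 and −1.65), DDIT3 (−1.64) and SEC61B (−1.15). The EDEM1 region was lower than all but 0.0083% of regions and the SEL1L region than all but 0.261%. The higher ones were at EIF2AK3 (1.56), SEL1L (1.54), EDEM1 (1.49), EDEM3 (1.46), PDIA4 (1.04) and HSPA5 (1.01). Summit reads with DMSO and POM were 202 and 412 at EIF2AK3, 140 and 348 at SEL1L and 241 and 485 at EDEM3. They were close at EDEM1 (547 and 569) and PDIA4 (185 and 199), and lower with POM at HSPA5 (120 and 106). That HSPA5 region, at 725 bp, had fold enrichments of 9.03 and 18.9. Of DMSO peaks at the member loci 71.8% (Wilson 95% interval 65.0 to 77.8, counting error only) had a POM counterpart, against 73.9% at all genes. Of POM peaks 90.0% (84.7 to 93.6) had a DMSO counterpart, against 76.1%. These intervals treat peaks as independent, although many share a locus, and are too narrow for a comparison with all genes.

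**Figure D5:**
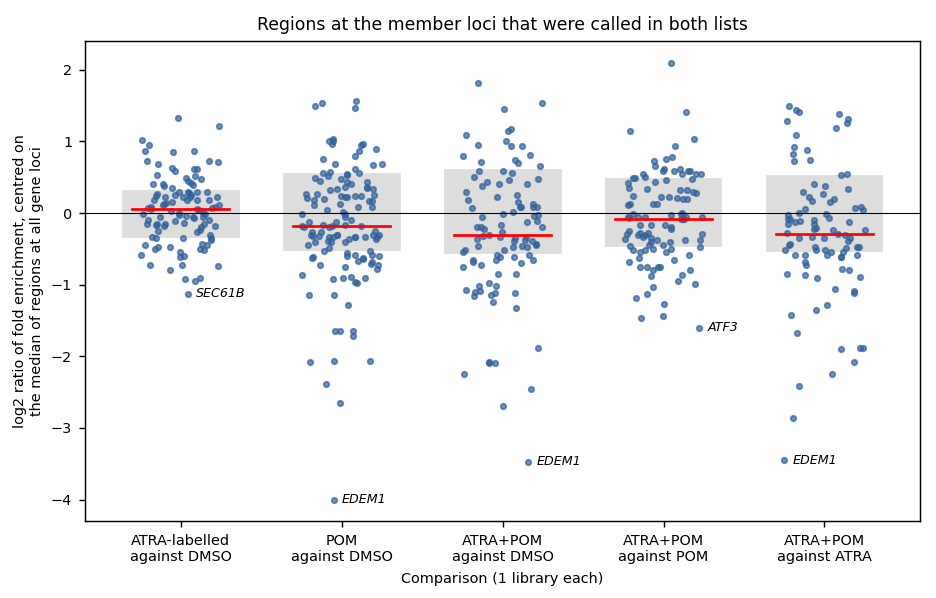
Points are merged regions at the member loci called in both lists of a comparison, and the vertical axis is the log2 ratio of fold enrichment centred on the median of regions at all gene loci. The red line is the members' median, the grey box the middle 50% of regions at all loci, and the lowest region is named. The EDEM1 region is lowest with POM and with ATRA+POM against DMSO (−4.00 and −3.47).

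ATRA+POM was set against DMSO for the pair of compounds, and this comparison shares the DMSO list with the one before. CHAC1 and TRIB3 had DMSO gene-end peaks and none with ATRA+POM (2 of 31, against 17.3% of all genes), and no member had the reverse (0 of 29, against 2.17%). In the band of 120 to 239 DMSO reads, which holds CHAC1, 6.48% of genes had no ATRA+POM gene-end peak, and in that of TRIB3 64.4%. Fold enrichment was lower over the whole ATRA+POM list, with a median log2 ratio of −0.85 over all genes, so the centred values are relative to that. EDEM1 (1.12) and CRELD2 (1.00) were past 2-fold higher (2 of 29, against 8.21%) and DNAJB11 was just past 2-fold lower (4.64 against 16.8; 1 of 29, against 8.14%). Next came EDEM3 (0.78) on the higher side and MZB1 (−0.92) and ERO1A (−0.91) on the lower. With summit reads in place of fold no member was past 2-fold higher and DNAJB11 was at −0.93. Other members were then past 2-fold lower, namely HERPUD1 (−1.61), SDF2L1 (−1.30), DERL2 (−1.22) and DERL1 (−1.17). The DNAJB11, HERPUD1 and SDF2L1 ratios set different places against each other, since their strongest summits moved. The DNAJB11 region at −688 bp had 16.8 (172) with DMSO and 4.26 (40) with ATRA+POM. The SDF2L1 region at −562 bp had 15.5 (135) and 4.83 (25).

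Region by region, 19 of 101 member regions were past 2-fold lower with ATRA+POM (18.8%, against 11.2% of 19080 regions at all loci) and 7 past 2-fold higher (6.93%, against 14.3%). Without centring the counts were 48 lower and 1 higher. The lowest were at EDEM1 (−3.47, below which no other of the 19080 regions lay), ERN1 (−2.70), HERPUD1 (−2.46), ATF3 (−2.25), DDIT3 (−2.10 at each of 2 regions), SEL1L (−2.08) and ASNS (−1.89). The highest were at DERL1 (1.82), EIF2AK3 (1.53), SEL1L (1.45) and EDEM3 (1.17). The EDEM1, ERN1, HERPUD1, SEL1L and ASNS regions are among those named with POM, and both comparisons use the same DMSO values, so the second is no independent repeat of the first. Counterparts were found for 55.3% (48.2 to 62.2) of DMSO peaks, against 57.7% at all genes, and for 93.5% (88.8 to 96.3) of ATRA+POM peaks, against 82.5%.

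The library labelled ATRA was set against DMSO, which asks what the retinoid alone went with, at a low inferred depth that limits it. No member with a DMSO gene-end peak lacked one in the ATRA-labelled list (0 of 31, against 18.2% of all genes), and none had the reverse (0 of 31, against 0.0877%). In DMSO 29 of these 31 members had strongest gene-end peaks of 120 reads or more, where 3.46% or fewer of all genes lacked one in the ATRA-labelled list. Past 2-fold higher after centring (median log2 ratio −0.61) were EDEM1 (1.49), HERPUD1 (1.37), ATF6 (1.11) and SSR1 (1.02), which is 4 of 31 against 1.35% of genes, and none was past 2-fold lower (against 3.51%). The lowest were SEC61B (−0.97), MZB1 (−0.76) and SEC61A1 (−0.62). With summit reads in place of fold the 4 values were 0.15, 0.53, 0.09 and 0.30 and none was past 2-fold. At EDEM1 and HERPUD1 the inner regions that were low with POM had 44.5 and 24.7 here, next to 59.5 and 37.5 with DMSO.

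ATRA+POM was set against POM, which asks about the retinoid in cells that had the drug. CHAC1 had a gene-end peak with POM, of 24 reads, and none with ATRA+POM (1 of 30, against 14.5% of all genes), and none had the reverse (0 of 29, against 0.824%). SEC61B (1.62) was past 2-fold higher (1 of 29, against 5.01%), and DDIT3 (−1.25) and EDEM2 (−1.07) past 2-fold lower (2 of 29, against 6.14%), relative to a median log2 ratio of −0.93. CRELD2 (0.67) and DERL1 (0.52) followed on the higher side and SSR1 (−0.82) on the lower. With summit reads in place of fold SEC61B was at 0.50, DDIT3 at 0.00 and EDEM2 at −0.44, and SDF2L1 (−1.30) was past 2-fold lower. That SDF2L1 value sets a POM summit at −573 bp against an ATRA+POM summit at 436 bp. Against the ATRA-labelled list, CHAC1 and TRIB3 had a gene-end peak there and none with ATRA+POM (2 of 31, against 6.59%), and none had the reverse (0 of 29, against 9.59%). In that pair SEC61B (1.41) and CRELD2 (1.38) were past 2-fold higher (against 7.27%) and HERPUD1 (−1.48) and DNAJB11 (−1.32) past 2-fold lower (against 8.20%), followed by EDEM3 (0.85) and PPP1R15A (−0.94). With summit reads SEC61B was at 0.31 and CRELD2 at 0.72, and HERPUD1 (−2.13), DERL1 (−1.47), SDF2L1 (−1.45) and DNAJB11 (−1.02) were past 2-fold lower. The HERPUD1 values set different places against each other, since its strongest summit stood at 1885 bp in the ATRA-labelled list and at −329 bp with ATRA+POM. So do those of DNAJB11 (−631 and 71 bp) and SDF2L1 (−585 and 436 bp). Matched by region, the HERPUD1 values were −1.90 at the region after the start and −0.52 at the region before it.

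Beyond the members, 88 further genes of the same pathways were looked up, from a list of sensors, amino acid and transfer RNA enzymes, folding, export and degradation genes. A gene-end peak was called at 74, 70, 73 and 69 of them (84.1%, 79.5%, 83.0% and 78.4%, against 48.8%, 40.0%, 47.9% and 41.3% of all genes). SESN2, a stress-induced regulator of mTORC1, was the only one (1 of 74, against 5.93% of all genes) with a DMSO gene-end peak and none with POM, at 267 DMSO reads, 42 ATRA-labelled reads and none at its ends with POM or ATRA+POM. With ATRA+POM the genes that lacked one were SESN2, EIF2AK4 (GCN2, the amino acid sensor among the eIF2 alpha kinases; 218 reads with DMSO), WFS1 (85), BHLHA15 (39) and EIF2AK2 (32), which is 5 of 74 (6.76%, below the 17.3% of all genes). XBP1, the factor that IRE1 activates, had gene-end peaks of 819, 141, 1544 and 669 reads, highest with POM. None of these 88 gained a gene-end peak against DMSO in any list, where 0.0877%, 4.05% and 2.17% of all genes with a peak in the ATRA-labelled, POM and ATRA+POM lists had none with DMSO.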

How the data were processed

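The 4 ChIP lists (1 library per treatment) were used as deposited, with 10 columns and no header, on chromosomes 1 to 22 and X. Their build is hg38 per the submitters' processing notes. No aligner, caller or antibody name is given in the sources used here. In the deposited lists column 5 is a score of 10 times −log10 p, and the others used are a fold enrichment (a ratio), the −log10 p-value and −log10 q-value, as the authors wrote them, per library and not pooled. Summit reads were inferred from fold and p under a Poisson caller (100.0% whole within 0.02 in each list), which no source states. With fold they also give the local background of each peak. The relative depth compares the lowest background value found at least 20 times, per base of the shortest peak, with that of DMSO. Read totals were not used, so depth was not told apart from scaling by the caller. No file of the 4 input libraries was analysed.

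The strongest peak was that with the highest −log10 q. Overlap of at least 1 bp made a counterpart or a merged region. Ratios were centred on the median of all genes (or regions at all loci) and called past 2-fold. Shares have 95% Wilson intervals, which treat peaks as independent although many share a locus. Tested on simulated data, 99.9% of 3000 summits were recovered and 100.0% of 400 loci gave the counts of a separate interval tool. The members, lists and tests were chosen with earlier results of these data known. Values in every list are given for 10 fixed genes, for members not called in some list, for the 6 strongest with DMSO and for the 3 highest and 3 lowest ratios per comparison. The region ratios and the regions named were added after values were seen. Promoters came from RefSeq (GRCh38.p14), for 34 of 36 members. Python 3.11.15, numpy 2.4.6, pandas 2.3.3, scipy 1.17.1, statsmodels 0.14.6 and matplotlib 3.10.9 were used.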

Additional observations from a re-analysis of the deposited data

Results flagged for a closer look

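SEC61B, a subunit of the ER translocation channel, had centred log2 ratios of gene-end fold enrichment of opposite sign for the addition of POM. It was −1.16 for POM against DMSO and 1.41 for ATRA+POM against the ATRA-labelled list. The difference between the pair of contrasts was not tested, since each rests on 1 library per treatment. The strongest summit at SEC61B stood at −119 bp from the start with DMSO, 646 bp in the ATRA-labelled list, 626 bp with POM and −131 bp with ATRA+POM, and with summit reads in place of fold the ratios were −0.48 and 0.31.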

How the results depend on the processing

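No paired analysis was possible because each treatment had 1 library. Of 193 alternatives, 133 left a result within 1.5 times its value or inside its interval. This compares values and not which members made up a count. With the stronger 50% of each list the loci held 95, 86, 88 and 79 peaks (DMSO, ATRA-labelled, POM, ATRA+POM). Gene-end calls in DMSO and not ATRA-labelled then numbered 2 (CRELD2, PDIA4). In DMSO and not ATRA+POM they numbered 5 (CHAC1, DNAJB11, HERPUD1, HSPA5, SDF2L1), and in POM and not ATRA+POM 4 (the same without CHAC1). In ATRA-labelled and not ATRA+POM they numbered 5 (the same as from DMSO), and the reverse of this 2. In DMSO and not POM the count stayed at 1, with CHAC1 in place of TRIB3. TRIB3 was in none of these counts in the stronger 50%. With 36742 strongest peaks from each list POM had 111 locus peaks, and the gene-end losses were 2 (DMSO to POM), 4 (DMSO to ATRA+POM), 2 (POM to ATRA+POM) and 4 (ATRA-labelled to ATRA+POM). With a −log10 q of at least 10 the losses were 1 from DMSO to ATRA-labelled and 1 from ATRA-labelled to ATRA+POM. With a 500 bp window 1 member had a DMSO call and 1 an ATRA+POM call with none ATRA-labelled. The shares over all genes under these settings are not given, so these counts have no background beside them.

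With an overlap of 50% of the peak, DMSO peaks had counterparts in 33.0% (ATRA-labelled), 60.6% (POM) and 31.4% (ATRA+POM), POM peaks in 51.7% with ATRA+POM, ATRA-labelled peaks in 68.2% with ATRA+POM and ATRA+POM peaks in 74.1% with ATRA-labelled. Within 500 bp the shares were 72.9% (DMSO in ATRA-labelled), 96.1% (POM in DMSO), 63.3% (DMSO in ATRA+POM), 84.4% (POM in ATRA+POM), 88.4% and 91.8% (ATRA-labelled in ATRA+POM, and the reverse). With equal numbers of peaks they were 84.1%, 95.5%, 63.5%, 79.3%, 66.5% and 91.5% in the same order.

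Without centring, members past 2-fold in gene-end fold were 0 higher and 5 lower (ATRA-labelled against DMSO), 2 higher (POM against DMSO), 0 higher and 16 lower (ATRA+POM against DMSO), 0 and 16 (against POM) and 7 lower (against ATRA-labelled), and regions were 10 higher with POM and 48 lower and 1 higher with ATRA+POM. With summit reads in place of fold they were 0 higher in all 5 comparisons and 4, 4, 1 and 4 lower (POM and ATRA+POM against DMSO, ATRA+POM against POM and against ATRA-labelled). At gene starts only they were 4 lower with POM, 1 higher and 3 lower with ATRA+POM against DMSO, and 4 lower against ATRA-labelled. For the uncentred counts the shift of whole lists by construction enters, and for the others the cause was not tested. The inferred depth of 0.133 limits what the ATRA-labelled list can hold.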
